A study of Homo sapiens with 4 samples.

Results

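The human mitochondrial genome encodes 37 of the 58336 genes in the deposited count table, taken here as all genes that the table places on the chromosome MT. They comprise 13 protein genes, 2 rRNA genes and 22 tRNA genes, and 9 of them (MT-ND6 and 8 tRNA genes) lie on the minus strand of the annotation. RNA sequencing was done on 4 libraries, 1 for each line and condition: AGS cells given 10 nM estradiol for 1 day, AGS control cells, HGC-27 cells given 10 nM estradiol for 1 day, and HGC-27 control cells. Both are established gastric cancer cell lines, labelled WT in genotype; the control treatment is labelled nc, and the labels do not name a vehicle. Nothing in the labels says that the libraries came from separate cultures, and no line has a replicate within a condition. The p-values therefore measure no replicate spread of a gene. They rest mostly on a spread estimated over all genes (1 residual and 396.9 prior degrees of freedom), which may be technical. Estradiol is the main oestrogen, and the study compared each line with and without it.

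Mitochondrial DNA is transcribed from both strands as long RNAs that run through many genes. The tRNAs lie between most of the protein and rRNA genes, and their excision releases the flanking RNAs. The protein genes encode subunits of the respiratory chain complexes I, III and IV and of the ATP synthase (complex V), while all proteins needed for mitochondrial transcription, RNA processing and translation are imported from nuclear genes.

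Total counts were 28062811 in AGS estradiol, 26306803 in AGS control, 24597379 in HGC-27 estradiol and 28734374 in HGC-27 control. AGS cells carried the epithelial marker EPCAM at 494 CPM (counts scaled to library size) with estradiol and 523 CPM in control, against 0.32 CPM with estradiol and 0.346 CPM in control in HGC-27. Of the gastric epithelial markers, TFF1 had no counts in either HGC-27 library while CLDN18 was low in both lines and lower in AGS, with 4 counts in AGS estradiol and 10 in AGS control, against 38 in HGC-27 estradiol and 35 in HGC-27 control. VIM, a mesenchymal marker, stood at 1.92 CPM with estradiol and 2.08 in control in AGS, against 1366 with estradiol and 1356 in control in HGC-27. The leukocyte marker CD3E had no counts in any library. A difference between the lines below is one between 2 lines with 2 libraries each. In bulk RNA, fewer cells of a type and less RNA per cell cannot be told apart.

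Among the tRNA genes, 5 had 240 or more counts in every library. Their sequences are shown because they hold most of the tRNA counts; they are GENCODE 29 (GRCh38) sequences of the RNA strand in DNA letters, 5′ to 3′, with the anticodon in capitals, and carry cysteine, proline, asparagine, tyrosine and leucine in the order given. The positions are MT:5761-5826, MT:15956-16023, MT:5657-5729 and MT:5826-5891 on the minus strand for the first 4, and MT:3230-3304 on the plus strand for MT-TL1.
MT-TC: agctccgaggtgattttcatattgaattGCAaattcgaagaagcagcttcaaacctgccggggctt
MT-TP: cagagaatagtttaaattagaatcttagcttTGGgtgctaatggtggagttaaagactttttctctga
MT-TN: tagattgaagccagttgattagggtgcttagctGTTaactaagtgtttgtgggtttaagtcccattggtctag
MT-TY: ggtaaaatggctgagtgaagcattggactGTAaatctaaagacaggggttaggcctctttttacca
MT-TL1: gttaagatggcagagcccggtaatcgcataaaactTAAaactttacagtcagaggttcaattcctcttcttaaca

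Mitochondrially encoded genes held close to the same share of all counts in the 4 libraries. The share was 7.82% in AGS estradiol (95% exact binomial interval 7.81% to 7.83%), 7.94% in AGS control (7.93% to 7.95%), 7.88% in HGC-27 estradiol (7.86% to 7.89%) and 7.91% in HGC-27 control (7.90% to 7.92%). The estradiol library was the lower of the pair in each line. These intervals, like all counting intervals here, cover counting error only, because there was 1 library for each line and condition. They may also be too narrow for that error, because reads that carry no molecular identifier need not come from independent molecules.

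The make-up of that share differed between the lines, with the widest gap in the rRNA genes. The rRNA genes held 11.98% of mitochondrial counts in AGS estradiol and 12.06% in AGS control, against 14.96% in HGC-27 estradiol and 14.87% in HGC-27 control. Complex I genes held 38.4% in estradiol-treated and 37.6% in control AGS cells, against 36.9% in estradiol-treated and 37.0% in control HGC-27 cells. Complex IV genes held 38.1% in AGS estradiol and 38.7% in AGS control, against 36.5% in HGC-27 estradiol and 36.5% in HGC-27 control. In all of these the AGS libraries lay on one side of the HGC-27 libraries. Complex III, represented by MT-CYB alone, held 4.882% with estradiol and 4.796% in control in AGS, against 4.24% with estradiol and 4.18% in control in HGC-27. The ATP synthase genes held 6.19% in estradiol-treated and 6.35% in control AGS cells, against 6.75% in estradiol-treated and 6.87% in control HGC-27 cells. The tRNA genes held 0.538% in AGS estradiol and 0.540% in AGS control, against 0.644% in HGC-27 estradiol and 0.620% in HGC-27 control. The 95% counting interval reached at most 0.068 percentage points to either side of these class shares.

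**Figure D1:**
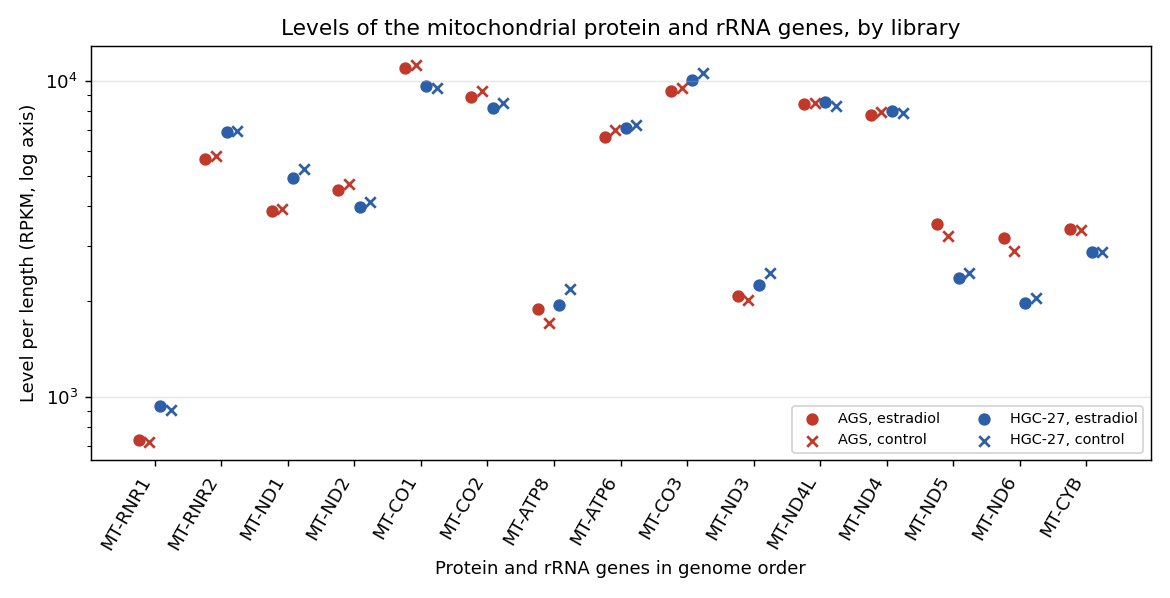
Level per length of the 13 protein and 2 rRNA genes (RPKM on a log axis) in genome order, 1 point per library, with AGS in red, HGC-27 in blue, circles for estradiol and crosses for control. MT-CO1 and MT-CO3 were highest and MT-RNR1 lowest; the 2 libraries of each line lie close together beside the gap between lines for MT-ND1, MT-ND5 and MT-ND6.

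Levels per length spanned a wide range among the protein and rRNA genes. All levels in this and the next paragraphs are RPKM, counts scaled by gene length and by library size. MT-CO1 (MT:5904-7445), the catalytic core subunit of cytochrome c oxidase, stood at 10934 RPKM in AGS estradiol and 11225 in AGS control, against 9610 in HGC-27 estradiol and 9464 in HGC-27 control. MT-CO3 (MT:9207-9990), another core subunit, stood at 9295 RPKM with estradiol and 9482 in control in AGS, against 10063 with estradiol and 10542 in control in HGC-27. MT-CO1 was therefore the highest of all members in both AGS libraries and MT-CO3 in both HGC-27 libraries. MT-CO2, which carries the copper site that takes electrons from cytochrome c, stood at 8850 RPKM in estradiol-treated and 9269 in control AGS cells, against 8208 in estradiol-treated and 8477 in control HGC-27 cells.

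Of the ATP synthase genes, MT-ATP6, which forms part of the proton channel, stood at 6641 RPKM in AGS estradiol and 6976 in AGS control, against 7085 in HGC-27 estradiol and 7263 in HGC-27 control. MT-ATP8, an accessory subunit, stood at 1894 RPKM with estradiol and 1712 in control in AGS, against 1950 with estradiol and 2192 in control in HGC-27. For both genes every AGS library was below every HGC-27 library. These genes share 46 bases of the plus strand at MT:8527-8572, shown because reads in it cannot be assigned to 1 of them by sequence; the sources used here do not give how such reads were counted.
MT-ATP8 and MT-ATP6: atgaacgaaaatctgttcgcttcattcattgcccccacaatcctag

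The complex I subunits differed widely among themselves. MT-ND4L and MT-ND4, which overlap by 7 bases, were close. MT-ND4L stood at 8455 RPKM in estradiol-treated and 8473 in control AGS cells, against 8563 in estradiol-treated and 8316 in control HGC-27 cells. MT-ND4 stood at 7810 RPKM in AGS estradiol and 7962 in AGS control, against 8024 in HGC-27 estradiol and 7885 in HGC-27 control. The ranges of the lines overlapped for both genes. The level of MT-ND4L was 1.05 to 1.08 times that of MT-ND4 in the 4 libraries. Such closeness was not general among pairs that share bases: the level of MT-ATP6 was 3.31 to 4.07 times that of MT-ATP8. MT-ATP8 is 207 bases long and shares 46 of them. How reads there were counted is not given, so this ratio describes the counts and need not reflect separate RNA levels.

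MT-ND1 (MT:3307-4262), the first protein gene after the rRNAs, stood at 3874 RPKM with estradiol and 3915 in control in AGS, against 4915 with estradiol and 5263 in control in HGC-27. MT-ND2, the next along the genome, stood at 4492 RPKM in estradiol-treated and 4706 in control AGS cells, against 3982 in estradiol-treated and 4126 in control HGC-27 cells. MT-ND3 stood at 2088 RPKM in AGS estradiol and 2025 in AGS control, against 2248 in HGC-27 estradiol and 2455 in HGC-27 control. For MT-ND1 and MT-ND3 both AGS libraries were below both HGC-27 libraries, and for MT-ND2 they were above. MT-ND5 (MT:12337-14148), the largest of the protein genes, stood at 3526 RPKM with estradiol and 3213 in control in AGS, against 2377 with estradiol and 2460 in control in HGC-27. MT-ND6 (MT:14149-14673), the only protein gene on the minus strand, stood at 3184 RPKM in estradiol-treated and 2897 in control AGS cells, against 1981 in estradiol-treated and 2056 in control HGC-27 cells. Both genes were higher in each AGS library than in either HGC-27 library.

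MT-CYB, the cytochrome b of complex III, stood at 3395 RPKM in AGS estradiol and 3377 in AGS control, against 2878 in HGC-27 estradiol and 2879 in HGC-27 control, with no overlap between lines. MT-RNR2 (MT:1671-3229), the large-subunit rRNA, stood at 5648 RPKM with estradiol and 5772 in control in AGS, against 6865 with estradiol and 6942 in control in HGC-27. MT-RNR1 (MT:648-1601), the small-subunit rRNA, stood at 731 RPKM in estradiol-treated and 721 in control AGS cells, against 931 in estradiol-treated and 906 in control HGC-27 cells. Both rRNAs were lower in AGS, and MT-RNR2 exceeded MT-RNR1 per length 7.73-fold in AGS estradiol, 8.01-fold in AGS control, 7.37-fold in HGC-27 estradiol and 7.67-fold in HGC-27 control. The sources used here do not give how rRNA was treated in library preparation, so this ratio describes the libraries.

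The line comparison was tested with edgeR's quasi-likelihood test with Benjamini-Hochberg adjustment over all 18278 genes tested, in a model with treatment as the other term. Of the 37 members 34 passed the filter on low counts and 21 were called at an adjusted p under 0.05, with 10 higher and 11 lower in AGS. Over all genes tested the share called was 77.2% (35.7% higher, 41.5% lower), so the members' count is below the background. Of the 15 protein and rRNA genes 12 were called, 6 in each direction. Their differences were small: the median absolute log2 difference was 0.20 for these 15 genes, against 0.89 for all genes tested.

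The largest differences towards AGS among protein and rRNA genes were in the last 3 of the gene order. MT-ND6 was higher by 0.59 ± 0.05 (log2, SE; n = 2 libraries per line, adjusted p = 1.5e-27) and MT-ND5 by 0.48 ± 0.05 (adjusted p = 6.02e-19). MT-CYB followed at 0.23 ± 0.05 (adjusted p = 5.55e-06), MT-CO1 at 0.22 ± 0.05 (adjusted p = 4.86e-05) and MT-ND2 at 0.18 ± 0.05 (adjusted p = 0.000449). MT-CO2 was called at 0.12 ± 0.05 (adjusted p = 0.024), but the call was lost without the AGS control library (0.10, adjusted p = 0.059) and when only protein-coding and mitochondrial genes were kept (0.07, adjusted p = 0.216).

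The genes lower in AGS include the first 3 protein and rRNA genes of the order. MT-ND1 was lower, with a log2 difference of -0.39 ± 0.05 (adjusted p = 2.16e-13), as were MT-RNR1 at -0.34 ± 0.05 (adjusted p = 6.11e-11) and MT-RNR2 at -0.27 ± 0.05 (adjusted p = 2.07e-07). MT-ND3 was at -0.19 ± 0.05 (adjusted p = 0.000203) and MT-CO3 at -0.13 ± 0.05 (adjusted p = 0.0112). MT-ATP8 was at -0.20 ± 0.05 (adjusted p = 0.000185), and its call was lost with DESeq2 (adjusted p = 0.128), with limma-voom (adjusted p = 0.0711) and without the AGS control library (-0.11, adjusted p = 0.0526). MT-ATP6 did not pass (-0.08 ± 0.05, adjusted p = 0.154), though DESeq2 and limma-voom called it (adjusted p = 0.00527 and 0.0357), as did the fit without the HGC-27 estradiol library (-0.10, adjusted p = 0.00601) and that on protein-coding and mitochondrial genes only (-0.12, adjusted p = 0.0276). MT-ND4 (-0.01 ± 0.05) and MT-ND4L (0.00 ± 0.05) were not called.

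Across the 15 protein and rRNA genes the line difference ran with genome position, with a Spearman correlation of 0.66 and a Pearson correlation of 0.67, and over the 14 on the plus strand with 0.59 and 0.59. These are descriptions across genes that share libraries and transcripts, and the order is not strict: MT-ND2, MT-CO1 and MT-CO2 lay above 0 early in it, and MT-ATP8, MT-CO3 and MT-ND3 below 0 later. Expressed within a library, the level of MT-ND5 was 0.910 times that of MT-ND1 in AGS estradiol and 0.821 in AGS control, against 0.484 in HGC-27 estradiol and 0.468 in HGC-27 control. The level of MT-CYB was 0.876 times that of MT-ND1 with estradiol and 0.863 in control in AGS, against 0.586 with estradiol and 0.547 in control in HGC-27. MT-ND6 stayed near MT-ND5, which it adjoins on the other strand, at 0.903 times its level in estradiol-treated and 0.901 in control AGS cells, against 0.833 in estradiol-treated and 0.835 in control HGC-27 cells. The sources used here do not give whether counting kept strand, so reads of MT-ND6 and of RNA from the opposite strand cannot be told apart.

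**Figure D2:**
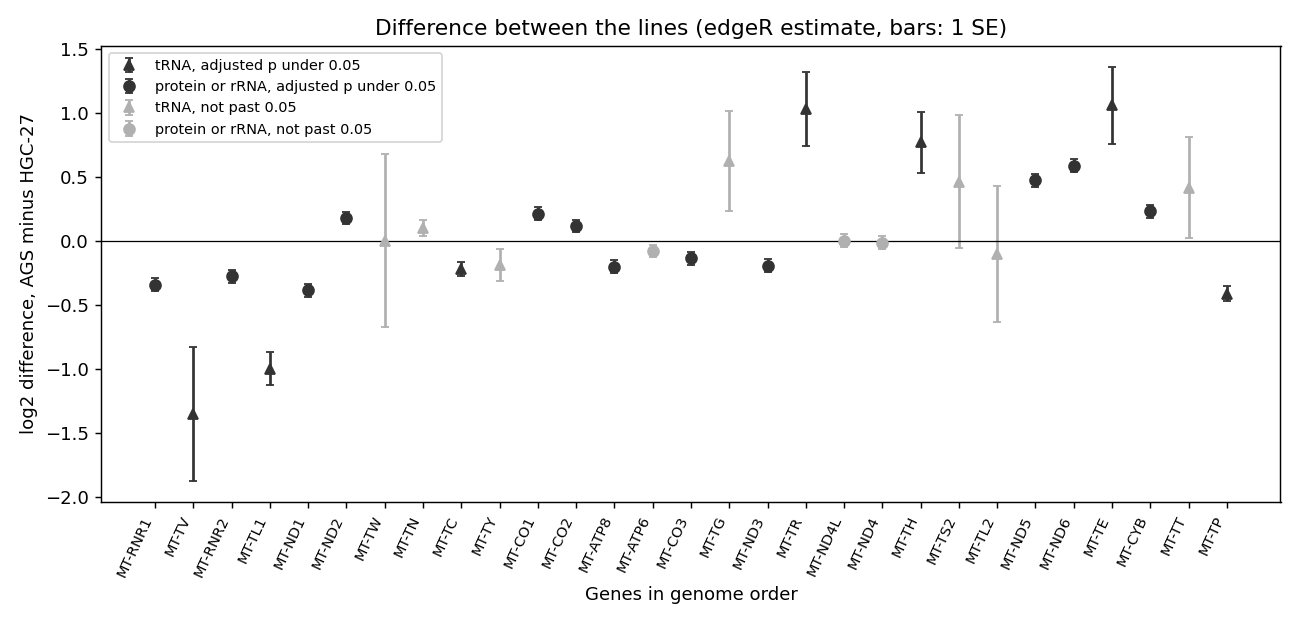
Log2 difference between AGS and HGC-27 (edgeR estimate, bars of 1 SE) for the 15 protein and rRNA genes (circles) and the 14 tRNA genes with at least 10 counts in every library (triangles), in genome order, with n = 2 libraries per line. Dark points passed an adjusted p of 0.05; circles run below 0 at MT-RNR1, MT-RNR2 and MT-ND1 and reach 0.59 at MT-ND6, and the highest triangle is MT-TE at 1.06.

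The tRNA genes were counted at low and very unequal depth. MT-TC had 5509 counts in AGS estradiol, 5470 in AGS control, 6116 in HGC-27 estradiol and 6714 in HGC-27 control. MT-TP had 2660 counts in AGS estradiol and 2332 in AGS control, against 3036 in HGC-27 estradiol and 3643 in HGC-27 control. MT-TN had 2335 counts with estradiol and 2286 in control in AGS, against 2011 with estradiol and 2323 in control in HGC-27. These 3 genes, all on the minus strand, held 89.0% of tRNA counts in estradiol-treated and 89.5% in control AGS cells, against 89.6% in estradiol-treated and 90.0% in control HGC-27 cells, and the other 19 tRNA genes had fewer than 1000 counts in every library. Minus-strand tRNA genes together held 93.1% of tRNA counts in AGS estradiol and 94.3% in AGS control, against 93.4% in HGC-27 estradiol and 93.7% in HGC-27 control. Whether counting kept strand is not given, so reads of minus-strand tRNA genes and of RNA from the opposite strand cannot be told apart. The tRNA genes are 59 to 75 bases long, and counts rather than levels per length are given for them.

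The remaining tRNA genes were far lower. MT-TY had 339 counts with estradiol and 404 in control in AGS, against 410 with estradiol and 440 in control in HGC-27. MT-TL1, a leucine tRNA between MT-RNR2 and MT-ND1, had 266 counts in estradiol-treated and 240 in control AGS cells, against 500 in estradiol-treated and 513 in control HGC-27 cells. Scaled to library size, the AGS libraries were below the HGC-27 libraries for MT-TL1, whereas the lines overlapped for MT-TY (12.3 CPM in AGS estradiol and 15.5 in AGS control, against 16.4 in HGC-27 estradiol and 15.2 in HGC-27 control). The count of 513 was the largest count of any plus-strand tRNA gene. Another 9 tRNA genes had between 10 and 189 counts in every library, and 8 fell under 10 counts in some library, with 0 to 36 counts. MT-TF, MT-TA and MT-TK, for phenylalanine, alanine and lysine, did not pass the filter. MT-TF had 1 count in AGS estradiol and 2 in AGS control, against 0 in HGC-27 estradiol and 2 in HGC-27 control, and MT-TA had 5 counts with estradiol and 2 in control in AGS, against 3 with estradiol and 1 in control in HGC-27. MT-TK had 12 counts in AGS estradiol and 0 in AGS control, and 3 counts in HGC-27 estradiol and 8 in HGC-27 control.

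**Figure D3:**
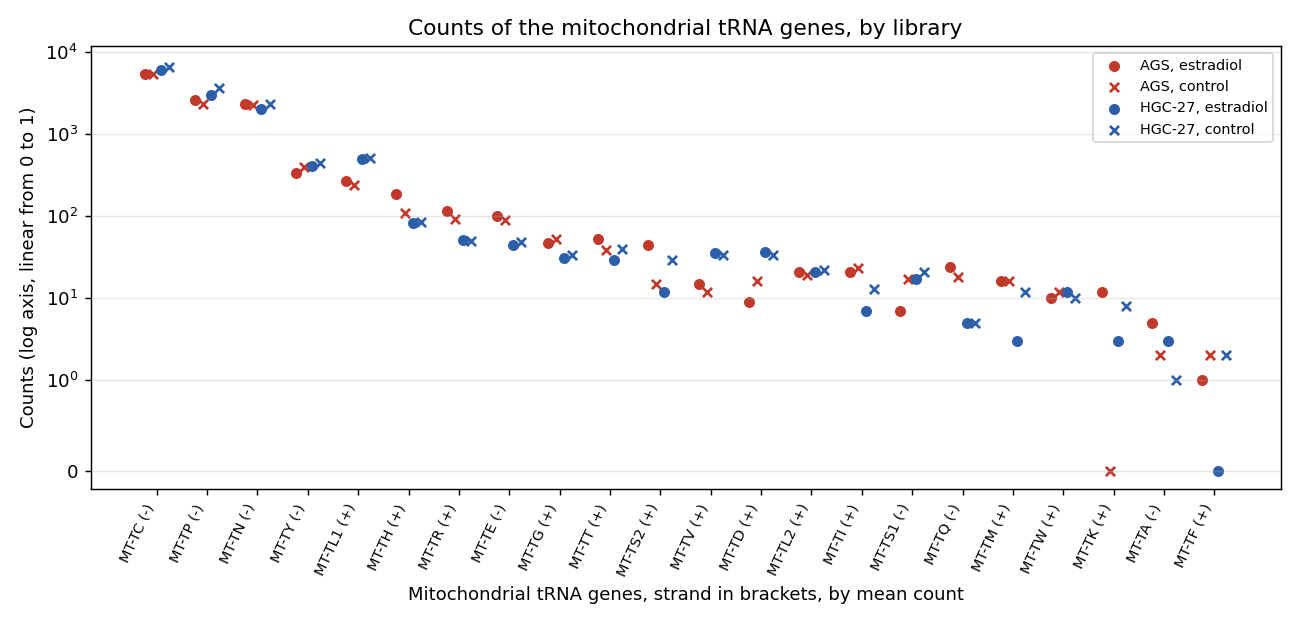
Counts of the 22 mitochondrial tRNA genes in each library (log axis, linear from 0 to 1), ordered by mean count, with the strand in brackets; AGS in red, HGC-27 in blue, circles for estradiol and crosses for control. MT-TC, MT-TP and MT-TN have at least 2011 counts in every library, and most of the others lie under 100.

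Between the lines, 9 of the 19 tRNA genes tested were called (47.4%), 4 higher and 5 lower in AGS, below the 77.2% called over all genes tested. The median absolute log2 difference of the 19 was 0.69, against 0.89 for all genes tested. Lower in AGS were MT-TL1 (-0.999 ± 0.13, adjusted p = 1.85e-13), MT-TP (-0.41 ± 0.06, adjusted p = 2.98e-11) and MT-TC (-0.22 ± 0.05, adjusted p = 7.14e-05). MT-TV, the valine tRNA between the rRNA genes, had 15 counts in estradiol-treated and 12 in control AGS cells, against 35 in estradiol-treated and 34 in control HGC-27 cells. It was called at -1.35 ± 0.52 (adjusted p = 0.0144), but not with DESeq2 (adjusted p = 0.0543) or without the HGC-27 estradiol library (-1.22, adjusted p = 0.0963). MT-TD, for aspartate, was at -1.48 ± 0.53 (adjusted p = 0.00802) with 9 to 36 counts, and was not called with DESeq2 (adjusted p = 0.0899), without the AGS estradiol library (-1.07, adjusted p = 0.0583) or without the HGC-27 estradiol library (-1.33, adjusted p = 0.0783). MT-TV and MT-TL1 lie beside rRNA genes that were also lower in AGS, but other neighbours differed in direction. MT-TD directly precedes MT-CO2, which was higher in AGS, and MT-TR, higher in AGS, directly follows MT-ND3, which was lower.

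Higher in AGS was MT-TE, a glutamate tRNA that follows MT-ND6 in the annotation and is on the same strand. It had 101 counts in AGS estradiol and 91 in AGS control, against 44 in HGC-27 estradiol and 48 in HGC-27 control (1.06 ± 0.30, adjusted p = 0.000739). MT-TR, for arginine, had 116 counts with estradiol and 92 in control in AGS, against 51 with estradiol and 50 in control in HGC-27 (1.04 ± 0.29, adjusted p = 0.000591). MT-TH, for histidine, had 189 counts in estradiol-treated and 108 in control AGS cells, against 83 in estradiol-treated and 86 in control HGC-27 cells (0.77 ± 0.24, adjusted p = 0.00179). The MT-TH call rested on the AGS estradiol library, without which the difference was 0.41 (adjusted p = 0.124), and it was lost with DESeq2 (adjusted p = 0.107). MT-TQ, for glutamine, was at 2.03 ± 0.71 (adjusted p = 0.00612) with 24 counts in AGS estradiol and 18 in AGS control, against 5 in HGC-27 estradiol and 5 in HGC-27 control, and was not called without the HGC-27 control library (1.93, adjusted p = 0.068). MT-TD and MT-TQ fell under 10 counts in some library and are named after their values were seen. Of the deeply counted genes, MT-TN (0.10 ± 0.06, adjusted p = 0.131) and MT-TY (-0.19 ± 0.12, adjusted p = 0.155) were not called, although MT-TY was called without the AGS control library (-0.35, adjusted p = 0.014).

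The other tRNA genes with at least 10 counts in every library were not called between lines. MT-TG, for glycine, had 47 counts with estradiol and 53 in control in AGS, against 31 with estradiol and 34 in control in HGC-27. MT-TT, for threonine, had 53 counts in estradiol-treated and 39 in control AGS cells, against 29 in estradiol-treated and 40 in control HGC-27 cells. MT-TL2, the second leucine tRNA, had 21 counts in AGS estradiol and 19 in AGS control, against 21 in HGC-27 estradiol and 22 in HGC-27 control. Scaled to library size, both AGS libraries were above both HGC-27 libraries for MT-TG and MT-TT. For MT-TL2 the values lay close together, from 0.731 CPM in AGS control to 0.840 CPM in HGC-27 estradiol. MT-TW, for tryptophan, had 10 counts with estradiol and 12 in control in AGS, against 12 with estradiol and 10 in control in HGC-27. MT-TS2, for serine, had 44 counts in estradiol-treated and 15 in control AGS cells, against 12 in estradiol-treated and 29 in control HGC-27 cells, and was called only without the AGS control library (1.09, adjusted p = 0.0266).

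Estradiol gave no call among the members in the model over both lines. With edgeR's quasi-likelihood test and the cell line as block, 0 of 34 members passed an adjusted p of 0.05, beside 0.153% of all genes tested (28 of 18278, with 0.115% higher and 0.0383% lower), and 1 member (MT-TH) had an unadjusted p under 0.05. DESeq2 and limma-voom also called 0, with 4 and 0 members at an unadjusted p under 0.05. Over the 15 protein and rRNA genes the log2 change ran from -0.06 to 0.04, each with an SE of 0.05, and the median was -0.01. MT-TH was at 0.47 ± 0.24 (edgeR, unadjusted p = 0.049); in AGS its log2 ratio was 0.72 and in HGC-27 0.16.

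Within each line there was 1 library per condition and no test, so log2 ratios of estradiol over control are given with 95% counting intervals. In AGS, 22 members had a mean of at least 100 counts; the interval lay above 0 for 6 and below 0 for 10 of them, beside 14.2% and 15.5% of all genes at that depth. In HGC-27, 20 members had that depth, with 5 above and 10 below, beside 10.8% and 14.6% of all genes. The protein and rRNA genes carry counts of up to 466036, so that their intervals are narrow and separate ratios that are small: these ratios ran from -0.07 to 0.15 in AGS and from -0.17 to 0.04 in HGC-27.

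The sign of the ratio differed between the lines for several members, a difference that was not tested. Of the 21 members with a mean of at least 100 counts over the 4 libraries, 7 had intervals on opposite sides of 0 in the 2 lines, 6 were below 0 in both (MT-RNR2, MT-ND1, MT-ND2, MT-CO2, MT-ATP6 and MT-CO3) and 0 were above in both. The matching shares over all genes were not computed, so these counts have no background beside them and say nothing particular to the members. Nuclear library sizes, RLE factors and raw totals each left the same 7 on opposite sides and 0 above in both. Raw totals and RLE factors left 5 below in both: the interval of MT-RNR2 in HGC-27 spanned 0 with raw totals, and that of MT-ND1 in AGS with RLE factors. Among the 7, MT-ATP8 had the widest split: 0.15 (0.11 to 0.19) in AGS, with 10835 counts in estradiol and 9212 in control, and -0.17 (-0.21 to -0.13) in HGC-27, with 10088 in estradiol and 13124 in control. MT-ND6 was at 0.14 (0.12 to 0.16) in AGS and -0.05 (-0.08 to -0.03) in HGC-27. MT-ND5 was at 0.13 (0.12 to 0.14) in AGS and -0.05 (-0.06 to -0.04) in HGC-27. The adjoining genes MT-ND5 and MT-ND6 thus had nearly equal ratios in each line. By contrast, MT-ATP6, which shares bases with MT-ATP8, showed no such split, at -0.07 in AGS and -0.04 in HGC-27. MT-ND3 was at 0.04 (0.02 to 0.07) in AGS and -0.13 (-0.15 to -0.10) in HGC-27, and MT-ND1 at -0.02 (-0.03 to -0.00) in AGS and -0.10 (-0.11 to -0.09) in HGC-27. With 1 library each, these ratios have no replicate check.

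**Figure D4:**
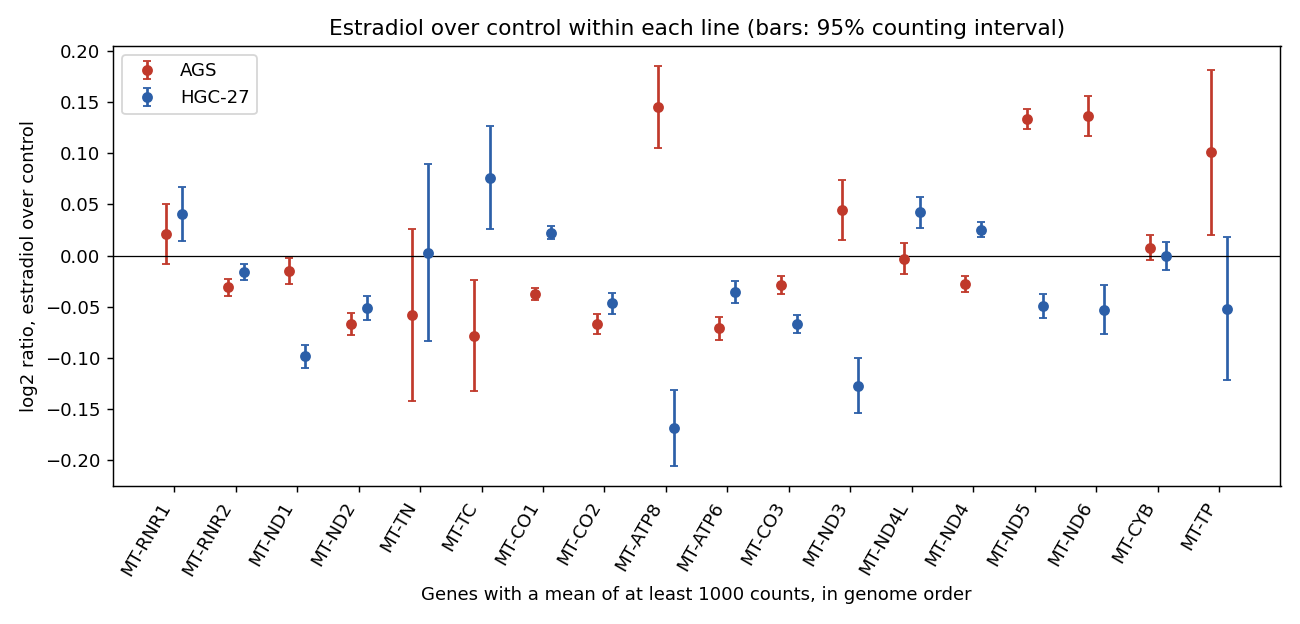
Log2 ratio of estradiol over control within AGS (red) and within HGC-27 (blue) for the members with a mean of at least 1000 counts, in genome order; bars are 95% counting intervals, with 1 library per condition. MT-ATP8, MT-ND5 and MT-ND6 lie above 0 in AGS and below 0 in HGC-27.

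Stretches of the nuclear genome carry copies of mitochondrial DNA, and the count table lists 405 such genes by symbol. Of these, 280 had no counts in any library and 3 had a mean of at least 100 counts. Their sum was 1.07% of the mitochondrial count in AGS estradiol and 1.05% in AGS control, against 1.20% in HGC-27 estradiol and 1.26% in HGC-27 control. The 3 copies held at least 98.4% of that sum, and all lie on chromosome 1 (GRCh38). In the transcripts, 14 of the 37 members, all but the tRNA genes and MT-RNR1, share at least 1 run of 31 bases with a nuclear transcript. For MT-CO1 (66.7%), MT-ATP6 (62.8%), MT-ND2 (56.9%) and MT-CO2 (50.5%) more than 50% of such runs are shared. The sources used here do not give how reads with several matches were counted. Counts of these genes are therefore uncertain, and the counts of their copies do not bound that uncertainty.

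MTATP6P1 (chr1:633696-634376), a copy of MT-ATP6, had 16220 counts with estradiol and 14775 in control in AGS, against 17855 with estradiol and 21785 in control in HGC-27. That was 12.98% of the MT-ATP6 count in estradiol-treated and 11.97% in control AGS cells, against 14.8% in estradiol-treated and 15.2% in control HGC-27 cells. MTATP6P1 was lower in AGS (-0.34 ± 0.05, adjusted p = 4.12e-11), beside -0.08 ± 0.05 for MT-ATP6. It matches MT-ATP6 in all but 10 of 681 bases, of which 2 are shown in capitals in this stretch (MT:8635-8694 and chr1:633804-633863).
MT-ATP6: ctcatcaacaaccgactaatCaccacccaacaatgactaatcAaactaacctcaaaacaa
MTATP6P1: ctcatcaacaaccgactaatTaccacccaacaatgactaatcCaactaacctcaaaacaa

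MTND2P28 (chr1:629640-630683) had 6428 counts in AGS estradiol and 6557 in AGS control, against 4810 in HGC-27 estradiol and 6091 in HGC-27 control, and was higher in AGS (0.27 ± 0.05, adjusted p = 1.13e-06), as MT-ND2 was. MTCO1P12 (chr1:631074-632616), which differs from MT-CO1 in 20 of 1542 aligned bases, had 531 counts in AGS estradiol and 276 in AGS control, and 300 in each HGC-27 library. It was the 1 copy called with estradiol (0.55 ± 0.13, adjusted p = 0.0355), beside -0.01 ± 0.05 for MT-CO1. The call was lost with DESeq2-type size factors (RLE) (adjusted p = 0.0818), nuclear library sizes (adjusted p = 0.162), robust shrinkage (adjusted p = 0.0533), DESeq2, limma-voom and without the line block, and the estimate stayed between 0.54 and 0.57. The log2 ratio was 0.85 (0.64 to 1.07) in AGS and 0.21 (-0.02 to 0.45) in HGC-27. Bases that tell the genes apart are in capitals below (MT:6363-6422 and chr1:631533-631592).
MT-CO1: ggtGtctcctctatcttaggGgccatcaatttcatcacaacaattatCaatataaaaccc
MTCO1P12: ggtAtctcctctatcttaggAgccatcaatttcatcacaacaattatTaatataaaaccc

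Nuclear genes that serve mitochondrial gene expression were examined as lists, with MRPL12 in 2 of them. None had a member called with estradiol. Between the lines, the background over all genes tested was 35.7% higher and 41.5% lower in AGS. Of 17 genes of mitochondrial transcription and its regulators, 7 were higher (41.2%) and 4 lower (23.5%) in AGS (median log2 -0.04, against -0.10 for all genes tested). TFAM, which packages mitochondrial DNA and starts its transcription, was higher by 0.62 ± 0.06 (adjusted p = 8.18e-23), and POLRMT, the mitochondrial RNA polymerase, by 0.27 ± 0.07 (adjusted p = 0.000156). PPARGC1A, a coactivator of mitochondrial biogenesis, had 96 counts with estradiol and 121 in control in AGS, against 4 with estradiol and 5 in control in HGC-27, while its relatives PPARGC1B (-1.22 ± 0.09) and PPRC1 (-1.21 ± 0.06) were lower in AGS.

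Of 37 genes of mitochondrial RNA processing and decay, 13 were higher (35.1%) and 14 lower (37.8%) in AGS, near the background of 35.7% and 41.5% (median 0.06). LRPPRC, which stabilises mitochondrial mRNAs, stood at 419 CPM in estradiol-treated and 419 in control AGS cells, against 635 in estradiol-treated and 630 in control HGC-27 cells (-0.59 ± 0.05, adjusted p = 2.69e-27). GRSF1, an RNA-binding protein of mitochondrial RNA granules, was higher in AGS by 0.52 ± 0.06. Of 19 genes of mitochondrial DNA replication and nucleoids, 8 were higher (42.1%) and 9 lower (47.4%), also near the background (median -0.06), with TYMP, thymidine phosphorylase, highest at 2.42 ± 0.24 and DGUOK, deoxyguanosine kinase, lowest at -1.48 ± 0.09. Of 22 genes of mitochondrial tRNA charging, mostly aminoacyl-tRNA synthetases, 10 were higher (45.5%) and 5 lower (22.7%), against 35.7% and 41.5% of all genes. The median was 0.10, and the called genes were led by SARS2 at 1.82 ± 0.30 and by GARS at -1.03 ± 0.05. Of 78 mitochondrial ribosomal proteins, 21 were higher (26.9%) and 40 lower (51.3%) in AGS, against 35.7% and 41.5% of all genes (median -0.23). Among these MRPL13 was lower at -2.80 ± 0.06, MRPS26 was higher by 1.29 ± 0.08, and MRPL23 had 1 count in AGS estradiol and 2 in AGS control, against 541 in HGC-27 estradiol and 713 in HGC-27 control.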

How the data were processed

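TRIzol was used to extract total RNA, and NEB library construction followed, per the labels' protocols. Reads were aligned with HISAT2 and counted with featureCounts, per the submitters' processing notes. Versions, strand setting and the handling of multiply matching reads were not given in the sources used here. Values in the deposited table are the authors' raw counts per gene, with no normalization. The notes name hg18, but all 37 mitochondrial genes have the coordinates of GENCODE 29 (GRCh38).

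The model, with terms for line and treatment, was fitted to the counts by edgeR 4.0.16 (R 4.3.3), with TMM scaling, the filterByExpr filter, the quasi-likelihood F-test and Benjamini-Hochberg adjustment over 18278 genes at 0.05. The line was a block because each line was measured under both conditions; the libraries of a line correlated at 0.997 (Pearson, log2 CPM plus 1), and those of different lines at 0.777 and 0.781. The residual degrees of freedom were 1 and the prior degrees of freedom 396.9. SEs were computed as the absolute log2 change over the root of F. RPKM used TMM-scaled library sizes and the table's gene lengths. Within-line ratios used a prior of 0.5 counts and an exact conditional binomial 95% interval. Transcript sequences were compared with Biopython 1.88. Alternatives were DESeq2 1.42.0, limma-voom (limma 3.58.1), other scalings and filters, and leaving out libraries. Steps were tested on simulated data. Values in each library are given for protein and rRNA genes and for tRNA genes with at least 10 counts in every library. Genes named from the lists are a choice among the called genes with the largest changes in each direction. Some genes with larger changes than those named were left out. The members, lists and rules were chosen with earlier results of these data known.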

Additional observations from a re-analysis of the deposited data

Results flagged for a closer look

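For 8 genes the log2 ratio of estradiol over control had a 95% counting interval above 0 in one line and below 0 in the other. The share of all genes with such intervals was not computed, so this count has no background beside it. Each line had 1 library per condition, so the difference between lines was not tested. As AGS minus HGC-27, the difference was 0.31 for MT-ATP8 (0.15 in AGS, -0.17 in HGC-27), 0.19 for MT-ND6 (0.14 and -0.05), 0.18 for MT-ND5 (0.13 and -0.05) and 0.17 for MT-ND3 (0.04 and -0.13). It was -0.155 for MT-TC (-0.08 in AGS, 0.08 in HGC-27), -0.060 for MT-CO1 (-0.04 and 0.02) and -0.053 for MT-ND4 (-0.03 and 0.03). MT-TS2 had the largest difference, 2.46 (1.43 in AGS, -1.03 in HGC-27), at 44 and 15 counts in AGS estradiol and control, against 12 and 29 in HGC-27.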

How the results depend on the processing

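No mitochondrially encoded gene was called with estradiol under any alternative with a test, including the fit with no replicate block (0 calls), although the number of calls over all genes was 28 in the model as reported, 16 with library sizes over nuclear genes, 17 with robust shrinkage, 1 with DESeq2, 0 with limma-voom and 0 with no replicate block. Robust shrinkage and the restriction to protein-coding and mitochondrial genes were chosen after seeing the data. The number of members called between the lines was 18 with DESeq2 and 22 with limma-voom, and 19 to 21 when each library was left out. With protein-coding and mitochondrial counts as the denominator the mitochondrial share was 7.96% in AGS estradiol, 8.08% in AGS control, 8.05% in HGC-27 estradiol and 8.08% in HGC-27 control. With raw totals, 9 HGC-27 estradiol ratios moved beyond their counting interval with no change of sign, such as MT-RNR2 to -0.0027 and MT-ATP6 to -0.022. The following values changed sign. For estradiol, MT-TC was at 0.00372 with RLE factors, 0.000557 with nuclear library sizes, 0.00339 with DESeq2, 0.00138 with limma-voom, 0.00467 with no replicate block and 0.00995 with protein-coding and mitochondrial genes; on the last, MT-CO1 was at 0.00242 and MT-ND4 at 0.00895. MT-ND4 was at 0.00279 with RLE factors and with DESeq2, and MT-CYB at -0.000488 without the filter. Between lines, MT-TW was at -0.0422 and MT-ND4L at -0.0429 with protein-coding and mitochondrial genes; leaving out each library gave -0.228 to 0.240 for MT-TW, -0.0231 to 0.0188 for MT-ND4L, -0.0314 to 0.00932 for MT-ND4, -0.371 to 1.17 for MT-TS2 and, for the nuclear copy MTCO1P12, -0.0638 (without the AGS estradiol library) to 0.798. Its line difference of 0.37 was also not called with DESeq2 (adjusted p = 0.323) or limma-voom (adjusted p = 0.0985). The cause was not tested. Without both libraries of a line, the estradiol ratio has no residual degrees of freedom and is a value with no test. Depth limits the tRNA genes: 8 of 22 had under 10 counts in some library, and a count of 0 allows up to 3 counts.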
